A study of Homo sapiens with 18 samples.

Results

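SP100 knockout keratinocytes were compared with wild-type keratinocytes after 48 h in interferon, at the level of every gene in the deposited expression table. The members are the 6 libraries whose labels give a time of 48 h, 3 of SP100 wild type (WT) and 3 of SP100 knockout (KO), out of 18 libraries in all. All 6 came from NIKS, a human keratinocyte line that became immortal in culture and still forms normal epidermis. Each had been treated for 48 h with human interferon alpha 2a (25 ng/mL), so the comparison holds no untreated library. The other 12 libraries are the same genotypes before treatment (0 h) and after 12 h. Column names of the table give a single cell line per genotype, Vec2 for WT and KO5 for KO, so what SP100 loss does and what else sets these lines apart cannot be told apart. The labels call the 3 libraries of a group biological replicates. NIKS cells are grown on lethally irradiated J2/3T3 mouse fibroblasts, and how reads of mouse origin were handled is not given in the sources used here.

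SP100 is a scaffold protein of PML nuclear bodies, the nuclear structures organised by the PML protein, and it is made as several isoforms of which some bind DNA or repress transcription. Interferon alpha acts through its receptor and the JAK kinases on a complex of transcription factors that includes STAT2 and IRF9, binds a short promoter element and raises interferon-stimulated genes, SP100 and PML among them. PML bodies hold DAXX and ATRX and, in interferon-treated cells, take up the histone H3.3 chaperone HIRA, which is the setting of the series' title. The effector genes of this response block viral entry, RNA synthesis and translation, while another part of it raises antigen presentation on class I molecules.

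Values are RPKM, read numbers divided by gene length and by library size, and a change is the difference between the KO and WT means of log2(RPKM + 1), which understates the change of low genes. A gene was called when its Benjamini-Hochberg adjusted p in a moderated limma test was below 0.05. RPKM tables keep no read totals. The relative depth of the 6 libraries, read from the steps between low values, spanned 0.904 to 1.181. Pairs of libraries of one 48 h group correlated at r = 0.9872 to 0.9889 across genes, and pairs of different genotype at 0.9845 to 0.9861. All 14 keratinocyte markers were in the table, with KRT5 at 8428 ± 144 RPKM in WT and 8314 ± 229 in KO (SD, n = 3) and KRT14 at 6382 ± 201 and 6250 ± 270. Markers of other cell types were mostly missing or low. Of 6 melanocyte markers only PMEL was in the table, at no more than 1.57 RPKM, and of 5 immune markers only CD14, at no more than 3.48. Of 10 fibroblast markers, 4 were in the table. Among these, PDGFRB stayed at or below 0.51 RPKM and COL1A1 at or below 2.18, and FAP ran from 3.52 to 4.89. SPARC, which keratinocytes in culture can also express, ran from 111.8 to 121.5. The summed fibroblast level was 124.1 to 127.5 RPKM in WT and 118.2 to 127.0 in KO, so the groups overlapped.

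SP100 itself was lower in every KO library. Its level was 127.1, 123.7 and 131.2 RPKM in the 3 WT libraries and 59.5, 57.4 and 62.4 in the 3 KO libraries. The groups lay far apart, at a log2 change of -1.08 ± 0.06 (SE, adjusted p = 1.47e-08). The KO mean was 46.9% of the WT mean and was not near 0. The sources used here do not give which part of the gene was altered, so a value over the whole gene does not check the edit. In bulk RNA, fewer cells with a transcript and less of it per cell cannot be told apart, and fewer transcripts and altered transcripts that are still counted cannot be told apart.

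Across 13280 genes tested, 556 were called at 48 h (4.19%), 269 higher (2.03%) and 287 lower (2.16%) in KO. Changes were mostly small: 390 of the 556 were under 1.5-fold, and 44 (0.331%) reached 2-fold, 15 higher and 29 lower. The median change of all genes was 0.01. All 556 called genes had WT and KO libraries that did not overlap, which also held for 2686 of all genes tested (20.2%). In the plot of change against adjusted p, FUCA2, NALF2 and PODXL2 lie farthest out among called genes.

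**Figure D1:**
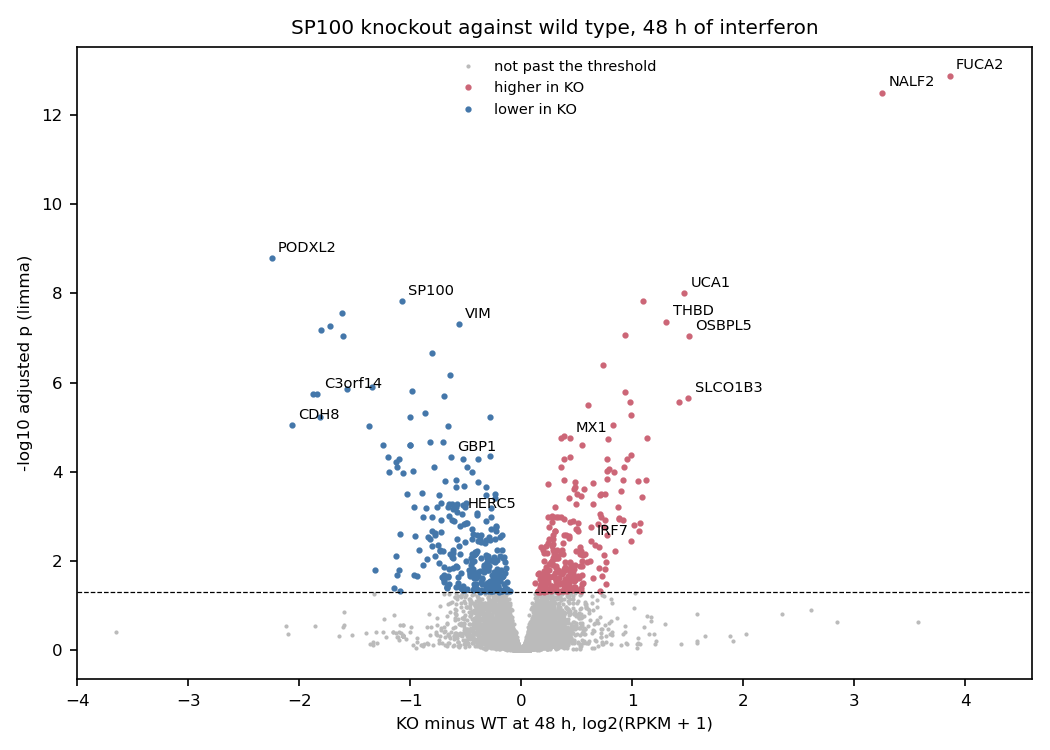
Each point is a gene, with the log2(RPKM + 1) difference between SP100 KO and WT at 48 h in interferon on the x axis and minus log10 of the adjusted p on the y axis; the dashed line marks an adjusted p of 0.05. Among called genes, FUCA2 and NALF2 lie farthest out on the higher side and PODXL2 and CDH8 on the lower side, and SP100 sits at -1.08; the grey point farther left did not pass the threshold.

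The highest changes were in FUCA2 and NALF2, both near 1 RPKM or below in WT. FUCA2, a secreted fucosidase that trims sugars from glycoproteins, was at 1.32, 1.12 and 0.94 RPKM in WT and 28.9, 30.6 and 29.8 in KO. Its log2 change was 3.86 ± 0.09 (SE, adjusted p = 1.34e-13). NALF2, an accessory subunit of the sodium leak channel, was at 0.28, 0.21 and 0.26 RPKM in WT and 10.6, 11.9 and 10.3 in KO, a change of 3.25 ± 0.08 (adjusted p = 3.19e-13). Every KO library lay well above every WT library for both genes, though the groups of all 556 called genes were apart.

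Several of the other strongly raised genes carry solutes or lipids. OSBPL5, an oxysterol-binding protein that moves lipids between membranes, rose from 8.90, 9.72 and 9.21 RPKM to 25.3, 32.5 and 27.3 (log2 change 1.51). SLCO1B3, an organic anion transporter best known from liver, was at 0.05, 0.22 and 0 RPKM in WT and 2.51, 2.21 and 1.60 in KO (1.51). SLCO2A1, the prostaglandin transporter, rose by 1.08 on the log2 scale, the GABA transporter SLC6A11 by 1.09 and the porphyrin transporter ABCB6 by 1.12. This is a description of the genes with the highest changes, and no transport list was tested. UCA1, a long noncoding RNA, rose from a mean of 5.33 ± 0.31 to 16.6 ± 1.5 RPKM (SD, n = 3; 1.47). THBD, the thrombomodulin gene, rose from 3.05 ± 0.40 to 8.99 ± 0.32 (1.31). ARMCX1, an outer mitochondrial membrane protein gene, rose by 1.42, the membrane scaffold gene MPP1 by 1.14 and EPGN, which encodes an epidermal growth factor receptor ligand, by 1.07.

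The largest falls were mostly losses of genes that were already low in WT. PODXL2, a sialomucin, was at 9.82, 9.95 and 10.8 RPKM in WT and 1.45, 1.57 and 1.07 in KO, a log2 change of -2.25 ± 0.10 (SE, adjusted p = 1.65e-09). CDH8, a classical cadherin, was at 2.77, 3.17 and 4.38 RPKM in WT and 0.08, 0 and 0.06 in KO (-2.07). C3orf14 went from 19.1, 15.1 and 19.9 RPKM to 3.31, 4.26 and 5.53 (-1.84). TSTD1, a thiosulfate sulfurtransferase gene, went from a mean of 13.2 ± 1.4 to 2.94 ± 0.90 RPKM (SD, n = 3; -1.87).

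CSAG1, a cancer/testis antigen gene on the X chromosome, was at 2.12, 2.47 and 3.01 RPKM in WT and listed at 0 in all 3 KO libraries. It has near-identical relatives, so reads could have been split between copies. TGM2, tissue transglutaminase, fell from 3.40, 2.72 and 2.78 RPKM to 0.25, 0.32 and 0.44 (-1.57). IGF2, the fetal growth factor gene, was at 2.47, 2.48 and 2.27 RPKM in WT and 0.27, 0.41 and 0.34 in KO (-1.35), and it overlaps another annotated gene. The remaining named falls were GPR50 (-1.80), a melatonin-receptor-related receptor, HACD4 (-1.72), an enzyme of very long chain fatty acid synthesis, MID2 (-1.60), a microtubule-associated TRIM protein, IQCA1 (-1.37) and DNAJA4 (-1.25), an HSP40 co-chaperone. All 24 of these highest and lowest genes had WT and KO libraries that did not overlap, which the rule that chose them required.

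**Figure D2:**
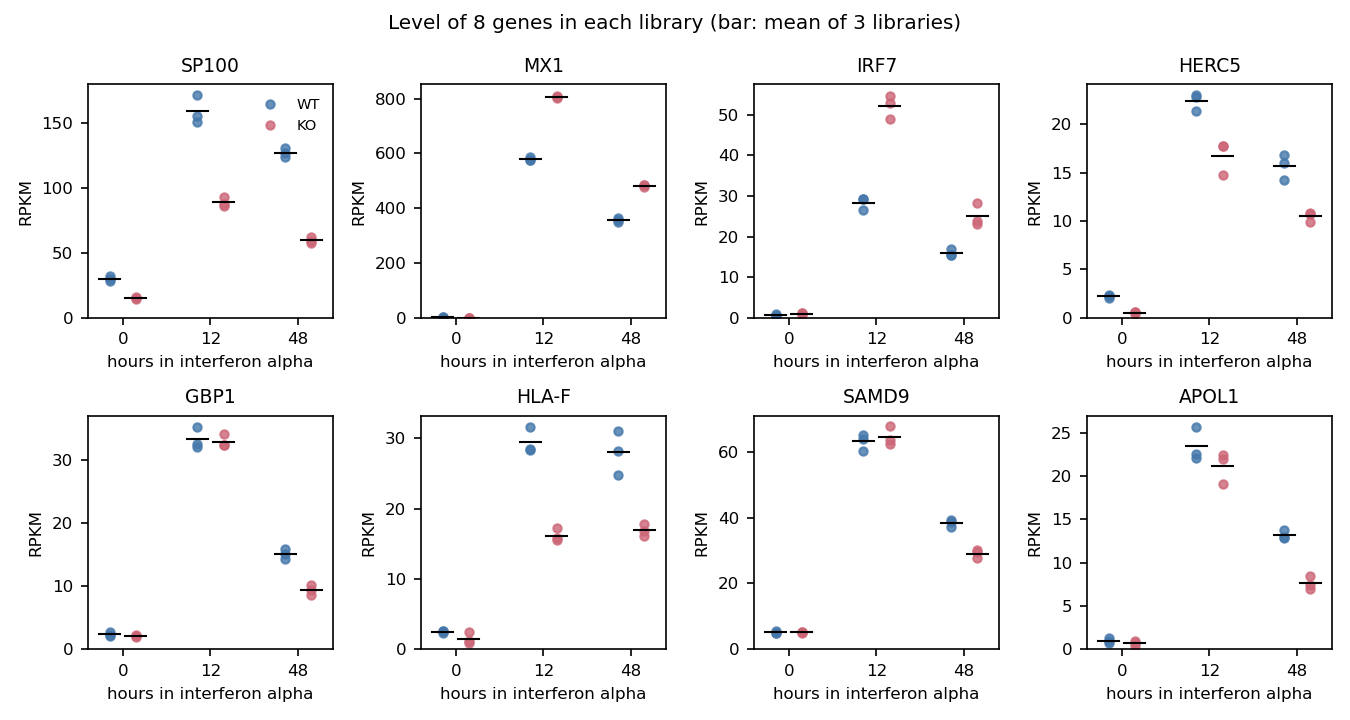
Each point is a library, blue for WT and red for KO, with hours in interferon alpha on the x axis, RPKM on the y axis from 0 and a bar at the mean of 3 libraries, for the gene above each panel. At 48 h the KO libraries lie below the WT libraries for SP100, HERC5, GBP1, HLA-F, SAMD9 and APOL1 and above them for MX1 and IRF7; GBP1 and SAMD9 overlap between genotypes at 12 h.

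In abundant genes the changes were small in ratio and large in RPKM. MT2A, a metal-binding metallothionein, fell from 3287 ± 347 to 2758 ± 139 RPKM (SD, n = 3; log2 change -0.25). S100A6, a calcium-binding protein, fell from 2376 ± 153 to 1904 ± 67 RPKM (-0.32), and S100A10, the annexin A2 partner, from 1528 ± 45 to 1397 ± 46 (-0.13). SFN, the epithelial 14-3-3 sigma, fell from 814.6 ± 41.8 to 698.7 ± 45.3 RPKM (-0.22) and TGFBI, an extracellular matrix protein induced by TGF beta, from 367.5 ± 25.9 to 254.9 ± 13.1 (-0.53). On the higher side, SCD, the enzyme that desaturates fatty acids, rose from 171.3 ± 7.0 to 223.1 ± 4.4 RPKM (0.38). EMP1, an epithelial membrane protein, rose by 0.39, AQP3, the keratinocyte glycerol and water channel, by 0.26 and FABP5, the epidermal fatty acid binding protein, by 0.16. The calls of S100A10, MT2A, SFN and FABP5 were lost in 9, 7, 7 and 6 of 13 alternative analyses, and those of TGFBI, S100A6, SCD and EMP1 in none.

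Of the interferon-stimulated genes that passed the test, most were lower in KO. The 4 lists of this response, holding effectors, signalling, nucleic acid sensing and class I presentation, had 90 genes tested. Of these, 2 were higher and 13 lower, that is 15 called (16.7%, against 4.19% of all genes), and 75 did not pass. The median change over the 90 was -0.12, against 0.01 over all genes, and 71 of the 90 were below 0, against 6197 of 13280. At 0 h, 11 effector, 2 signalling, 4 sensing and 3 class I genes were lower in KO, and 1 effector and 1 signalling gene higher. The list medians at 0 h were -0.048, 0.018, -0.004 and -0.041, in that order. At 12 h, 3, 0, 1 and 1 were lower, and 1 effector and 1 signalling gene higher.

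Among effectors, 1 of 42 was higher and 6 were lower (16.7% called, against 4.19% of all genes), with a median of -0.13. MX1, a GTPase that traps viral nucleocapsids, went the other way from the other called effectors. It was at 363.8, 357.4 and 347.7 RPKM in WT and 483.3, 486.2 and 477.9 in KO, a log2 change of 0.44 ± 0.05 (SE, adjusted p = 1.73e-05). GBP1, a guanylate-binding GTPase, was at 14.2, 15.8 and 15.1 RPKM in WT and 9.37, 8.55 and 10.2 in KO (-0.63 ± 0.07, adjusted p = 4.68e-05). HERC5, the ligase that attaches ISG15 to proteins, was at 14.3, 16.8 and 16.0 RPKM in WT and 10.8, 9.90 and 10.7 in KO (-0.54). For each of these genes the WT and KO libraries did not overlap, which held for all 556 called genes and for 20.2% of all genes tested.

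SAMD9, a restriction factor of poxviruses, fell from 38.3 ± 1.1 to 29.1 ± 1.3 RPKM (SD, n = 3; -0.39), and XAF1, a pro-apoptotic XIAP-associated factor, from 32.1 ± 3.4 to 23.3 ± 1.8 (-0.44). IFIT1, which binds RNA lacking host-type caps, fell from 271.7 ± 4.5 to 218.4 ± 4.5 RPKM (-0.31, adjusted p = 0.035) and OASL, an oligoadenylate synthetase relative, from 35.4 ± 1.9 to 29.7 ± 0.8 (-0.25, adjusted p = 0.0424). The IFIT genes resemble each other, so reads could have been split between them. The calls of IFIT1 and OASL were lost in 9 and 8 of 13 alternative analyses, and that of XAF1 in 4. With a pseudocount of 0.1 in place of 1, MX1 also missed the threshold (adjusted p = 0.0672). Of the effectors that did not pass, IFI6 changed by -0.23 (adjusted p = 0.0999), IFI27 by -0.15, IFIT3 by -0.16 and MX2 by -0.10.

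Of 16 signalling genes tested, 1 was higher and 1 lower (12.5% called, against 4.19% of all genes). The list's median was -0.02 (0.0091 without WT replicate 2). IRF7, the factor that amplifies interferon production, was at 16.8, 15.4 and 15.3 RPKM in WT and 23.1, 28.3 and 23.9 in KO, a log2 change of 0.63 ± 0.11 (SE, adjusted p = 0.00352; 0.0937 with a pseudocount of 0.1). Every KO library lay above every WT library, as for every gene called higher. The receptor gene IFNAR1 changed by 0.04, STAT2 by -0.04 and IRF9 by -0.04, none past the threshold.

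Of 13 sensors of foreign nucleic acid, 4 were lower and none higher (30.8% called, against 4.19% of all genes), with a median of -0.15 and 10 below 0. DHX58, the LGP2 helicase, was at 10.6, 12.8 and 11.1 RPKM in WT and 6.53, 7.74 and 7.20 in KO (-0.61, adjusted p = 0.00566; 0.0653 with a pseudocount of 0.1). TLR3, the endosomal receptor for double-stranded RNA, fell from 5.13 ± 0.08 to 3.51 ± 0.17 RPKM (SD, n = 3; -0.44). RIGI, the cytoplasmic RNA helicase sensor, fell from 99.9 ± 0.7 to 84.3 ± 2.6 (-0.24, lost in 3 of 13 alternative analyses), and STING1, the adaptor downstream of DNA sensing, from 35.6 ± 1.3 to 30.4 ± 1.5 (-0.22), a call lost in 9 of 13 alternative analyses. IFIH1, the MDA5 sensor, changed by -0.21 (adjusted p = 0.0617) and CGAS by -0.24 (adjusted p = 0.119).

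In the class I pathway, 2 of 19 genes were lower and none higher (10.5% called, against 4.19% of all genes). HLA-F, a nonclassical class I molecule, was at 28.2, 31.0 and 24.8 RPKM in WT and 16.1, 17.8 and 16.8 in KO (-0.69 ± 0.15, adjusted p = 0.0137). PSMB9, an immunoproteasome subunit, fell from 57.0 ± 4.8 to 43.7 ± 2.3 RPKM (-0.37, adjusted p = 0.0166). Each call was lost in 3 of 13 alternative analyses, and neither gene was called without WT replicate 2 or without KO replicate 1. HLA-F also missed the threshold with a pseudocount of 0.1 (adjusted p = 0.0884). It shares long stretches with other class I genes, so its level is uncertain. B2M changed by -0.08, HLA-B by -0.18 and TAP1 by -0.13, none past the threshold.

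**Figure D3:**
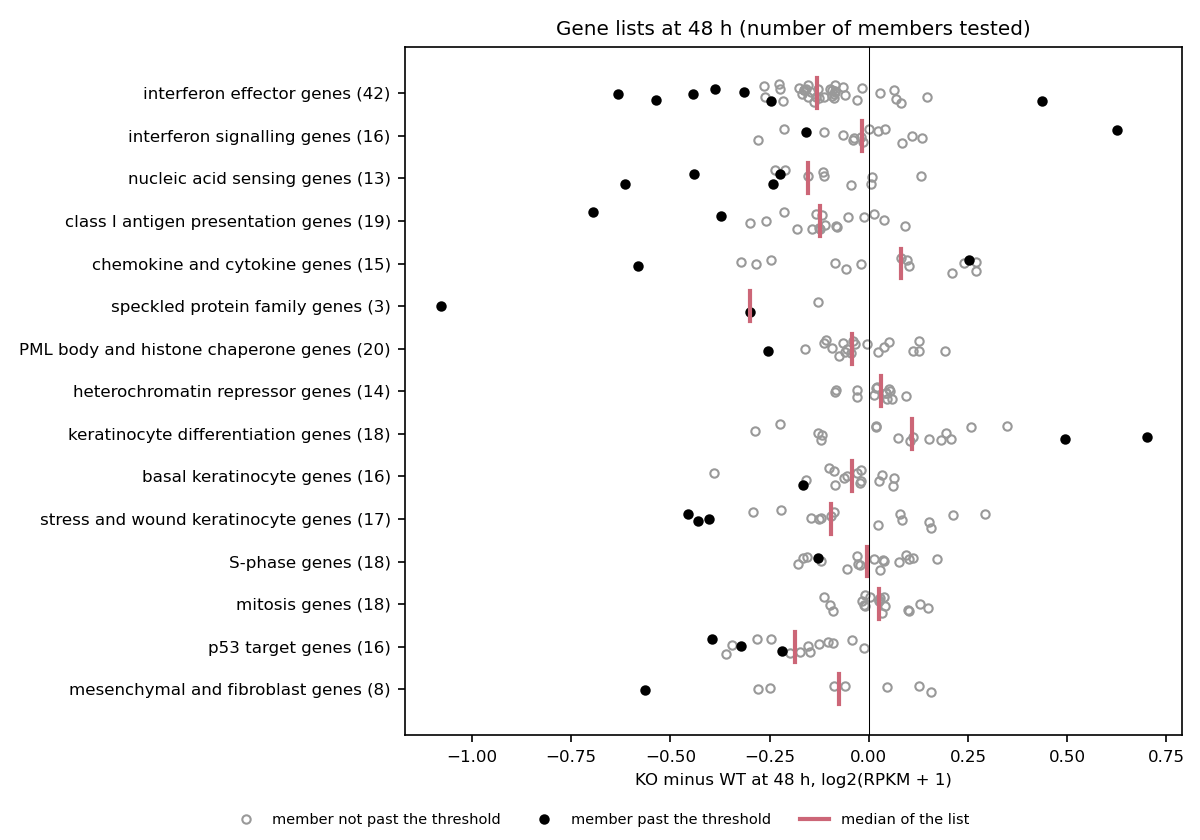
Each row is a gene list with the number of members tested, each point a member, with its log2(RPKM + 1) difference between KO and WT at 48 h on the x axis; filled points passed an adjusted p of 0.05 and the red bar marks the list's median. The interferon rows lie mostly left of 0, with MX1 and IRF7 to the right, and all 16 p53 targets lie left of 0.

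A wider set was taken from other libraries: 218 tested genes (1.64%) that rose at least 2-fold in WT between 0 and 12 h. Those libraries do not enter the 48 h means, but they do enter the variances of the fit behind the 48 h calls. At 48 h, 5 of them were higher and 29 lower in KO (15.6% called, against 4.19% of all genes), with a median change of -0.10. The set depends on the response of WT cells. Of 233 genes that rose at least 2-fold in KO between 0 and 12 h, 4 were higher and 31 lower (15.0% called), with a median of -0.10. Members of the WT set outside the lists that fell include the 3 neighbouring apolipoprotein L genes on chromosome 22. APOL3 went from 4.22, 4.57 and 4.73 RPKM to 2.06, 1.47 and 1.60 (-1.03), APOL1 from 13.2 ± 0.5 to 7.60 ± 0.81 (SD, n = 3; -0.72) and APOL2 from 12.4 ± 0.7 to 9.34 ± 0.60 (-0.37). These genes resemble each other in sequence.

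Others in the WT set that fell were TRIM21, an intracellular antibody receptor (-0.36), CASP1, the inflammasome protease (-0.31, lost in 3 of 13 alternative analyses), and UBE2L6, the conjugating enzyme for ISG15 (-0.20, lost in 9). HSD11B1, the enzyme that regenerates cortisol, fell from 5.77 ± 0.33 to 2.69 ± 0.53 RPKM (-0.88), and MMP13, a collagenase, from 4.41 ± 0.77 to 2.54 ± 0.23 (-0.60). Besides MX1 and IRF7, those that rose were CA9, a carbonic anhydrase known for its response to low oxygen, from 6.82, 10.2 and 8.26 RPKM to 18.2, 19.1 and 17.6 (1.05), NFE2L3 (0.51), a transcription factor, and A4GALT (0.43), a glycolipid synthase whose call was lost in 7 of 13 alternative analyses.

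The complex that holds STAT2 and IRF9 binds an interferon-stimulated response element, searched here by its core, the letters GAAA, any 2 bases and GAAA again, on both strands (TTTC, any 2 bases, TTTC), with overlapping matches counted separately. The window was the 250 bases before and 50 after each start in RefSeq's table (GRCh38.p14). At least 1 match was present for 1195 of 27305 genes with a promoter in that table (4.38%), for 380 of 9653 genes tested (3.94%) and for 40 of 69 tested members of the 4 interferon lists (58.0%). Of the genes called at 48 h, 16 of 399 had one (4.01%), near the share of genes tested: 13 of 195 lower genes (6.67%) and 3 of 204 higher genes (1.47%). A match is a string of letters in this window and no evidence of binding. The promoters below are shown because MX1 rose while HERC5, GBP1 and HLA-F fell, each with the same core, in capitals. They are written 5′ to 3′ on the gene's strand, and for MX1, which has 3 starts of which 2 hold a match, the first is given.
MX1 (chr21:41420308-41420607, plus strand): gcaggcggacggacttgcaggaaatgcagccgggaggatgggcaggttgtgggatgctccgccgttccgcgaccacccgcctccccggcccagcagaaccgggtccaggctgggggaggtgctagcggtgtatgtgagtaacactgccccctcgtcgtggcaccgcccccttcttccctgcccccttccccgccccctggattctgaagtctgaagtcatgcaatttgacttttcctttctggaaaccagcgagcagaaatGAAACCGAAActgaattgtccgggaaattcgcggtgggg
HERC5 (chr4:88456869-88457168, plus strand): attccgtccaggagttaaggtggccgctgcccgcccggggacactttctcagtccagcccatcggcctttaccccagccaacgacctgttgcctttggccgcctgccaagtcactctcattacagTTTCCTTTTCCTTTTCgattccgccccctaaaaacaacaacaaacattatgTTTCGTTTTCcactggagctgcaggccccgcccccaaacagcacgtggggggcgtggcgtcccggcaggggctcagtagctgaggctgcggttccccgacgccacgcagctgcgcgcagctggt
GBP1 (chr1:89065159-89065458, minus strand): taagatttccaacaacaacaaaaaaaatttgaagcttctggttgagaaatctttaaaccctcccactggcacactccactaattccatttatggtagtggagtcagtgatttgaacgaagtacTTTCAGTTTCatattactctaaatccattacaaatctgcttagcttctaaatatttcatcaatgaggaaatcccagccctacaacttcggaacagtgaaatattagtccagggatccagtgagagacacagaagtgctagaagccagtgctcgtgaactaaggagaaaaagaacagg
HLA-F (chr6:29723184-29723483, plus strand): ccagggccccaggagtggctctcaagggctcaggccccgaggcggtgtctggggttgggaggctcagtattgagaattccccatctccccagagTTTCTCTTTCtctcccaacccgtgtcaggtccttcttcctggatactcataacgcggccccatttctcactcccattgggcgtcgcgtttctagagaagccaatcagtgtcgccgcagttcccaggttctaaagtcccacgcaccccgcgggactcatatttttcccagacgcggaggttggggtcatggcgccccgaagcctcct
HERC5 has 3 matches, of which the first pair overlap, and the others have 1 each in the window shown. XAF1, RIGI and PSMB9, which fell, and SP100 itself had no match in their windows.

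Of 20 genes of the PML body and its histone chaperones, 1 was called (5.00%, near the 4.19% of all genes). PML was at 50.4 ± 2.6 RPKM in WT and 50.3 ± 2.6 in KO (SD, n = 3; log2 change 0.00, SE 0.06). HIRA was at 16.6 ± 0.6 and 16.9 ± 0.7 (0.02, SE 0.08), DAXX changed by -0.06 and ATRX by 0.19, none past the threshold. None of 14 heterochromatin repressor genes was called by limma, against 4.19% of all genes. SP110, a relative of SP100 that is also on chromosome 2, fell from 65.9, 62.4 and 67.3 RPKM to 57.0, 51.4 and 50.2 (-0.30, adjusted p = 0.0161), a call lost in 5 of 13 alternative analyses. SP140L changed by -0.13 (adjusted p = 0.645). Reads shared between these relatives could have been split.

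In the keratinocyte differentiation list 2 of 18 were higher and none lower (11.1% called, against 4.19% of all genes), with a median of 0.11. KRTDAP, a secreted keratinocyte differentiation protein, rose from 21.4, 20.6 and 23.1 RPKM to 40.1, 34.3 and 33.4 (0.70, adjusted p = 0.00481). KLK5, the protease that sheds the outer layers of skin, rose from 18.4 ± 0.6 to 26.4 ± 3.1 RPKM (SD, n = 3; 0.49). KRT10 changed by 0.18 and IVL by 0.15, neither past the threshold. In the basal list 1 of 16 was called (6.25%, near the 4.19% of all genes), COL17A1 of the hemidesmosome (-0.17), and that call was lost in 5 of 13 alternative analyses.

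Of 17 stress and wound genes, 3 were lower and none higher (17.6% called, against 4.19% of all genes). S100A9 fell from 91.2, 105.5 and 108.4 RPKM to 76.4, 78.1 and 75.0 (-0.40, adjusted p = 0.000937), its partner S100A8, with which it forms calprotectin, by 0.46 on the log2 scale, and SLPI, a protease inhibitor, by 0.43, the latter calls being lost in 4 and 3 of 13 alternative analyses. Of 15 chemokine and cytokine genes, 2 were called (13.3%, against 4.19% of all genes). IL1B was higher (0.25, lost in 9 of 13 alternative analyses) and CSF1, the macrophage growth factor, lower (3.80 ± 0.56 to 2.20 ± 0.25 RPKM, -0.58). In the mesenchymal list 1 gene of 8 was called (12.5%, against 4.19% of all genes). It was VIM, an intermediate filament protein, which fell from 298.1, 272.8 and 284.4 RPKM to 193.8, 196.2 and 186.8 (-0.57 ± 0.03, adjusted p = 4.95e-08). FN1 changed by -0.25 (adjusted p = 0.0686).

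All 16 tested targets of p53, the DNA damage response factor, had a change below 0, against 6197 of 13280 of all genes, and 3 passed the test (18.8%, against 4.19%). DDB2, a DNA damage recognition protein, fell from 41.0, 41.7 and 40.3 RPKM to 31.9, 30.0 and 30.9 (-0.39 ± 0.05, adjusted p = 5.26e-05). BAX, which opens the mitochondrial membrane in apoptosis, fell from 118.4 ± 5.8 to 94.5 ± 4.9 RPKM (SD, n = 3; -0.32), and CDKN1A, the p21 inhibitor of the cell cycle, from 184.5 ± 8.3 to 158.3 ± 4.6 (-0.22, lost in 2 of 13 alternative analyses). MDM2 changed by -0.28 (adjusted p = 0.108) and GDF15 by -0.36 (adjusted p = 0.338). The list's median was -0.19 at 48 h, beside -0.11 at 0 h, where 2 were lower, and -0.25 at 12 h, where 7 were lower. Of the cycle lists, 1 of 18 S-phase genes was called (5.56%, near the 4.19% of all genes). It was TYMS, which was lower (-0.13, lost in 7 of 13 alternative analyses). None of 18 mitosis genes was called by limma, against 4.19% of all genes, with MKI67 at 0.10. CDKN2A, which encodes the p16 inhibitor, was singled out after its values were seen. It fell from 4.87, 6.53 and 5.31 RPKM to 2.03, 2.17 and 1.81 (-1.12).

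Of the genes called at 48 h, most were also called before interferon was added, with the same sign. The genotype comparison at 0 h called 650 genes (4.89%, 2.82% higher and 2.07% lower) and that at 12 h called 481 (3.62%, 1.60% higher and 2.02% lower), on libraries that the 48 h comparison does not use in its means. The 0 h calls held 334 of the 556 genes (60.1%, and 51.4% of the 0 h calls) and the 12 h calls 260 (46.8%, and 54.1% of the 12 h calls), and no shared gene had the opposite sign. At all 3 times 224 genes were called, and 501 of the 556 had the same sign throughout. FUCA2, for example, changed by 3.84 before treatment, 3.55 at 12 h and 3.86 at 48 h, and PODXL2 by -2.26, -2.27 and -2.25. SP100 changed by -0.94, -0.83 and -1.08.

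**Figure D4:**
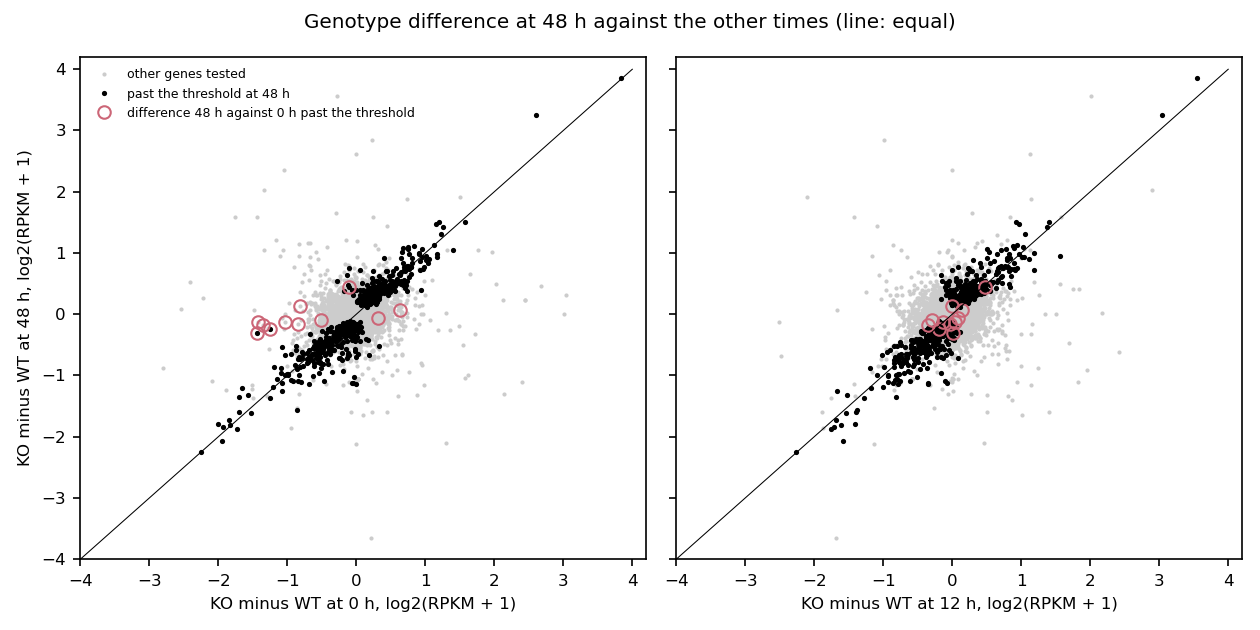
Each point is a gene, with the genotype difference (KO minus WT, log2(RPKM + 1)) at 0 h in the left panel or 12 h in the right panel on the x axis and at 48 h on the y axis; black points were called at 48 h, rings mark the 11 genes whose difference at 48 h differed from that at 0 h, and the line marks equal values. The black points lie along the line, 501 of 556 with the same sign at all 3 times, while most rings lie far left of it at 0 h and near 0 at 12 h.

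Tested directly, the genotype difference at 48 h differed from that at 0 h for 11 genes (0.0828%, 0.0678% upward and 0.0151% downward; 826 at an unadjusted p below 0.05), all of them known interferon-stimulated genes. In 8 of them, untreated KO cells lay below untreated WT cells and the gap was smaller at 48 h. IFI44, for example, differed by -1.43 at 0 h and by -0.13 at 48 h (177.4 ± 2.3 against 162.5 ± 7.6 RPKM, SD, n = 3), a difference between times of 1.30 (adjusted p = 0.00118). ISG15, the ubiquitin-like modifier, differed by -1.36 at 0 h and -0.18 at 48 h, IFIT1 by -1.44 and -0.31, OASL by -1.25 and -0.25 and DDX60, an RNA helicase, by -0.81 and 0.13. The 48 h difference thus lay near 0 for most of these genes. MX1 changed by -0.10 at 0 h and 0.44 at 48 h, and it was also higher at 12 h (0.48).

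Against 12 h, no gene passed the limma test of the difference (904 at an unadjusted p below 0.05), so the genes called at 48 h and not at 12 h are not shown to differ between those times. Some interferon-stimulated genes had nearly equal means in both genotypes at 12 h and a lower KO mean at 48 h. GBP1 was at 33.3 ± 1.8 RPKM in WT and 32.9 ± 1.1 in KO at 12 h (SD, n = 3), against 15.1 ± 0.8 and 9.38 ± 0.83 at 48 h, and the difference between times was -0.62 (adjusted p = 0.107). SAMD9 was at 63.1 ± 2.5 and 64.5 ± 2.9 at 12 h and 38.3 ± 1.1 and 29.1 ± 1.3 at 48 h (-0.42, adjusted p = 0.107). The WT means of both genes were lower at 48 h than at 12 h.

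At 48 h, 186 of the 556 genes were called that were called at neither other time, and 140 of these had the same sign at all 3 times. Besides APOL3, the lowest were COL8A1, a short-chain collagen (2.35 ± 0.31 to 0.71 ± 0.06 RPKM, SD, n = 3; -0.96), IGFL1, a growth-factor-like secreted protein (-0.94), and ZNF559, a zinc finger gene (2.80 ± 0.47 to 1.00 ± 0.15; -0.92), together with RPL31P38, a ribosomal protein pseudogene (-1.09). Besides KRTDAP, the highest were CLMN, a calponin-like membrane protein (1.51 ± 0.41 to 3.71 ± 0.54; 0.91), RGPD6 (0.73), ANKUB1 (0.71) and PKN3, a protein kinase (0.70). RPL31P38 and RGPD6 have near-identical copies, and the calls of RPL31P38, ANKUB1, RGPD6 and PKN3 were lost in 8, 10, 5 and 3 of 12 alternative analyses and that of IGFL1 in 4 of 13.

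Along the genome, 4 runs of at least 3 called neighbours with the same sign were found. On chromosome 1, SERINC2, TINAGL1, PEF1 and COL16A1 were lower by 0.51 to 0.66 on the log2 scale. On chromosome 16, the metallothioneins MT2A, MT1L and MT1E were lower, MT1L from 96.8 ± 1.5 to 68.5 ± 4.9 RPKM (SD, n = 3; -0.49), and these genes are near-identical in places. The apolipoprotein L genes made the third run, and LRP11, RAET1E and RAET1G on chromosome 6 were higher, although LRP11 and RAET1G lost their calls in 10 of 13 alternative analyses. RAET1E and RAET1G encode stress ligands of the NKG2D receptor.

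Genes of chromosome 7 stood slightly above the rest in KO. Of 597 tested genes there, 73.2% had a change above 0, with a median of 0.07, while the medians of the other 22 nuclear chromosomes ran from -0.02 to 0.03. The 15 tested mitochondrial genes, none of them called, had a median of 0.20 (-0.43 at 0 h and -0.23 at 12 h), and their library medians overlapped between genotypes (-0.48 to 0.31 in WT and -0.20 to 0.30 in KO). The shift of chromosome 7 genes was present at 0 h (0.10) and at 12 h (0.08) as well. Relative to the mean of the 6 libraries, the median over chromosome 7 genes was -0.06, -0.04 and -0.02 in WT and 0.05, 0.04 and 0.04 in KO, so the libraries of the genotypes did not overlap. Along the chromosome, 10 windows of at most 60 genes had medians from 0.05 to 0.12. On it, 36 genes were called (6.03%, against 4.19% of all genes), 27 higher and 9 lower. The share was higher on chromosome X, with 28 of 395 called (7.09%) and a median of 0.01. NFE2L3 and NOS3 lie on chromosome 7 among the higher genes, and SAMD9 among the lower. NOS3, endothelial nitric oxide synthase, rose from 0.46 ± 0.11 to 1.95 ± 0.40 RPKM (SD, n = 3, log2 change 1.01) and was singled out after its values were seen. Copy number was not measured, and its part in these changes was not tested.

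**Figure D5:**
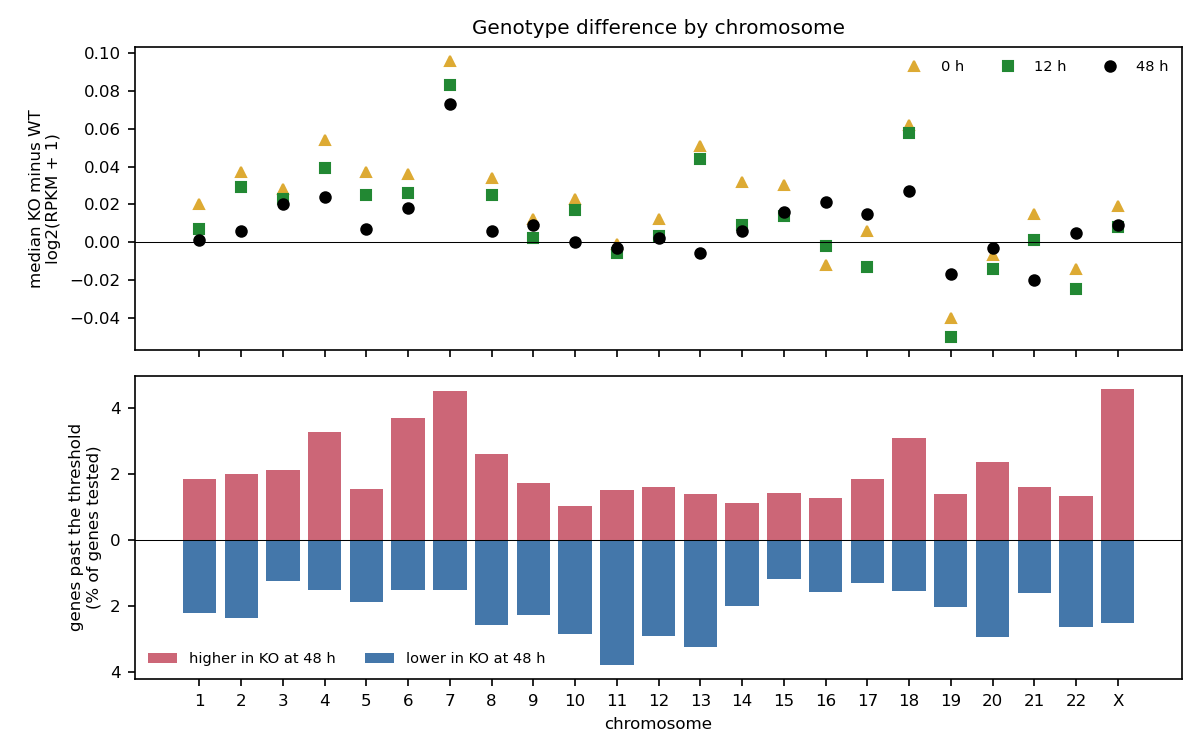
In the upper panel each symbol is the median genotype difference (KO minus WT, log2(RPKM + 1)) over the tested genes of a chromosome at 0, 12 or 48 h, and in the lower panel bars give the percent of its tested genes called higher (up) or lower (down) at 48 h. Of the nuclear chromosomes drawn, chromosome 7 has the highest median at each of the 3 times, 0.07 at 48 h; mitochondrial genes are not drawn.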

How the data were processed

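The authors deposited 1 table of RPKM values for 16472 genes in 18 libraries, rounded to 2 decimals. Total RNA was extracted and made into stranded poly(A) libraries, per the labels' protocols. The submitters' processing notes name cutadapt, STAR 2.6.1, RSEM 1.3.0, limma 3.50.3 and the build hg19, without their roles. The gene annotation, gene filter, strand setting and read totals are not given in the sources used here. Symbols were matched for 14576 genes, and chromosomes came by gene ID from GENCODE release 29, for 96.8% of the genes tested.

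No count model was used on RPKM, and log2(RPKM + 1) was tested with limma 3.58.1 in R 4.3.3. Genes with at least 1 RPKM in at least 3 libraries were kept. All 18 libraries entered a fit with 1 mean per group and no covariate, with variances moderated along a trend in the mean, and p-values were adjusted over the 13280 genes tested. The fit was tested on simulated data with normal errors. There it called 59% of 100 genes given a log2 change of 0.5 and 91% of 100 given a change of 1. Of its calls, 3.85% were false. Changes of 0.5 or less can thus go uncalled. Contrasts were KO minus WT at 48 h, and that difference minus the one at 0 h or at 12 h. Relative depth was estimated from ratios of 859 low-value genes. An RPKM table gives no read totals, so intervals that need counts are not given.

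The genes named are SP100, the 12 highest and 12 lowest changes among called genes with a symbol, at least 1 RPKM in a group mean and groups that do not overlap, the 5 largest RPKM differences each way, the 5 highest and 5 lowest called at 48 h alone, the largest differences between times, called list members and up to 4 defining members that were not called. A few genes that these rules name are not reported here, though counts over lists include them. Genes outside these rules are the called neighbours, called genes raised by interferon at 12 h, and CDKN2A and NOS3, chosen after their values were seen. The comparison, members and lists were chosen with earlier results of these data known. Of the 17 lists, those of melanocyte and immune cell genes had 1 and 2 members tested and none called. Promoter sequences are from RefSeq (GRCh38.p14). Alternatives were another pseudocount, filters, scaling, the libraries of the comparison only, no variance trend, a replicate block, and each replicate left out.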

Additional observations from a re-analysis of the deposited data

Results flagged for a closer look

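For 11 genes the genotype difference at 48 h differed from that at 0 h in a limma test of the difference itself (adjusted p below 0.05), and each value here is the difference at 48 h minus that at 0 h in log2(RPKM + 1). In 8 of them KO cells were lower before interferon and nearer to WT at 48 h: IFI44 (1.30), ISG15 (1.18), IFIT1 (1.13), OASL (1.01), DDX60 (0.94), IFIT2 (0.90), IFIT3 (0.69) and IFITM3 (0.42). MX1 (0.54) was near WT at 0 h (-0.10, adjusted p = 0.227) and higher in KO at 48 h. OAS2 (-0.56) and USP18 (-0.38) were higher in KO at 0 h, by 0.63 and 0.32, and did not pass the test at 48 h, where they differed by 0.06 and -0.07. The groups at 48 h and at 0 h share no library. With only the libraries of the comparison fitted, OASL, IFI44 and IFIT1 alone passed. With a pseudocount of 0.1, MX1 did not pass. IFITM3 and USP18 did not pass with no filter, with another scaling, with no variance trend or with a replicate block.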

How the results depend on the processing

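In none of the 13 alternative analyses did a gene called at 48 h change sign. The count of 556 fell to 250 (117 higher, 133 lower) when only the libraries of the comparison were fitted, with 234 of the 556 kept. Leaving out each replicate in turn gave 375 to 424 calls, 174 to 218 higher and 194 to 232 lower, and kept 350 to 380 of the 556. Requiring a mean RPKM of at least 5 left 390 of the 556 in the test, of which 379 were kept (97.2%). With that filter 189 genes were lower and 10 reached at least 2-fold. A pseudocount of 0.1 gave 100 of at least 2-fold. Those of at least 2-fold numbered 39 to 51 with a replicate left out. Genes whose difference at 48 h differed from that at 0 h numbered 3 with only the libraries of the comparison and 7 to 11 with a replicate left out (7 without WT replicate 2). Against 12 h, 1 gene passed with only the libraries of the comparison (RSAD2) and 1 with no variance trend (CLMP), and 0 with any replicate left out. Some small list medians changed sign with a replicate left out. That of interferon signalling genes ran from -0.0505 to 0.0091 (0.0091 without WT replicate 2), that of chemokine and cytokine genes from -0.0263 to 0.0771 (-0.0263 without WT replicate 1), and that of S-phase genes from -0.0179 to 0.0343 (0.0086, 0.0011 and 0.0343 without WT replicates 1 and 3 and KO replicate 2). The cause was not tested.

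With the replicate number as a block, 465 genes were called (221 higher, 244 lower), and 449 of the 556 were kept. Same-numbered libraries did not deviate together over all genes tested (r = 0.00494, -0.022 and 0.00642). Whether they share a batch that touches fewer genes was not tested. RPKM without read totals gives no counting error, and changes of genes below about 1 RPKM are understated by the pseudocount.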
